A study of Homo sapiens with 9 samples.

Results

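The immediate early response genes considered here are FOS, FOSB, JUN, JUNB, EGR1, EGR2, ATF3, IER2, IER3 and DUSP1, and their probes were taken by gene name alone. The set itself was proposed when earlier results of these data were known. All 10 genes, of 34623 gene names on the array, were found, and 14 of its 42405 probes and 32 spots measured them. The cells were NT2 cells (hNT2), 1 human embryonal carcinoma line, which retinoic acid turns towards neurons. Every culture was kept in differentiation medium with 10 μM retinoic acid for 96 h. The 3 control samples (A, B and C) received no organophosphorus compound, 3 samples received 1 μM paraoxon and 3 received 5 μM mipafox. RNA of each sample was hybridized to 1 one-colour Agilent array. Paraoxon and mipafox are both organophosphorus esterase inhibitors. Mipafox also inactivates neuropathy target esterase. The doses of the compounds differed and no dose series or earlier time was measured. The study's methods call the 3 arrays of a treatment technical replicates while its GEO design calls them biological ones, and a p-value therefore measures only the spread between these arrays.

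Immediate early genes are transcribed within minutes of a stimulus from factors that the cell already holds, among them serum response factor with its ELK partners and CREB, which are phosphorylated by MAP kinases and other kinases. Most of their messages are short-lived, and the response to a single stimulus usually passes within hours. FOS and FOSB pair with JUN or JUNB to form the transcription factor AP-1, EGR1 and EGR2 are zinc finger factors, and ATF3 is a stress-induced factor of the ATF family. DUSP1 is a phosphatase that switches MAP kinases off, IER3 modulates survival and ERK signalling, and IER2 is a nuclear protein of the same response. An array at 96 h therefore shows the level of these genes under a continued exposure and not their first response.

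The arrays lay on 2 slides. Slide 1 held control A, B and C with mipafox A, and slide 2 held paraoxon A, B and C with mipafox B and C. Paraoxon and control thus shared no slide and their difference cannot be told apart from a slide difference except through mipafox. In a fit with slide as a block, each difference from control therefore rests on mipafox A, the only exposed array on the slide of the controls. Between 65.7% and 73.6% of the probes were well above background on an array. Of 9 embryonal carcinoma markers measured, among them POU5F1 and NANOG, all were well above background on all 9 arrays. So were 3 of 5 astrocyte genes and 4 of 5 blood and macrophage genes measured. GFAP of the first list and HBB of the second were well above background on none of the arrays.

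Signals are given as normalized log2 signal, which is the log2 of the processed spot signal minus the 75th percentile of its array. A value of 0 is therefore the 75th percentile and a difference of 1 is a doubling. A level of one probe was not set against that of another. Where 3 values are given for a treatment they are in the order A, B, C. EGR2 (A_23_P46936, hg19 chr10:64571850-64571909, minus strand) was not well above background on any of the 9 arrays, its normalized log2 signal lay between -9.25 and -7.82, and it was not tested. The other 9 genes, with 13 probes, were well above background on all 9 arrays and none of their spots was saturated.

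The treatment means of FOS (A_23_P106194, chr14:75748214-75748273, plus strand) differed by less than their SE in the fit without the slide. FOS read -2.64, -2.72 and -2.73 on the controls, -2.69, -3.05 and -2.58 on the paraoxon arrays and -3.09, -2.73 and -2.36 on the mipafox arrays. The controls lay close together, the exposed arrays fell on both sides of them, and the groups overlapped. The log2 fold change was -0.075 with paraoxon (95% interval -0.53 to 0.38) and -0.023 with mipafox (-0.48 to 0.44), with limma adjusted p-values of 0.927 and 0.995. With slide as a block the values were -0.62 with paraoxon (SE 0.30, adjusted p 0.617 in limma) and -0.39 with mipafox (SE 0.24). As for every gene here, the RNA came from whole cultures, so fewer cells with the message and less message per cell cannot be told apart.

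FOSB (A_23_P429998, chr19:45978205-45978264, plus strand) read -3.84, -4.03 and -3.97 on the controls, -4.23, -4.27 and -3.03 on the paraoxon arrays and -3.74, -3.91 and -3.93 on the mipafox arrays. Paraoxon C was the highest of the 9 arrays and the other paraoxon arrays were the lowest. The 2 FOSB spots of paraoxon C read -4.24 and -1.81, neither with an outlier flag, while on the other 8 arrays the SD between the spots was at most 0.17. The lower spot of paraoxon C lay between paraoxon A and paraoxon B, below the 3 controls. Without paraoxon C the difference of paraoxon from control was -0.31, against 0.10 with it, and neither was called. For FOSB a single spot on 1 array therefore carried the sign.

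JUN (A_33_P3323298, chr1:59246511-59246570, minus strand) had a control mean of 0.38 ± 0.15 (SD, n = 3). The mean was 0.31 ± 0.035 (SD, n = 3) on the paraoxon arrays and 0.24 ± 0.37 (SD, n = 3) on the mipafox arrays. Its lowest value, -0.17, was on mipafox C and its highest, 0.53, on mipafox A. The paraoxon arrays all lay inside the range of the controls. The 95% interval of the log2 fold change was -0.50 to 0.35 with paraoxon and -0.56 to 0.29 with mipafox.

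JUNB, an AP-1 partner, had the largest difference from control among the 9 genes read at their brightest probe. It was measured at chr19:12902998-12903057 (hg19, plus strand) by the probe below, which is shown because this difference rests on it.
JUNB A_24_P241815: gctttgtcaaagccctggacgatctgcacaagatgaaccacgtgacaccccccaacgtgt
It read -4.06, -4.53 and -4.36 on the controls, -4.51, -4.86 and -5.82 on the paraoxon arrays and -4.95, -4.62 and -4.14 on the mipafox arrays. Paraoxon C was the lowest array, and there its 2 spots read -6.17 and -5.47 and only 1 of them was well above background. Paraoxon A lay between the controls. The log2 fold change with paraoxon was -0.74 (SE 0.33, 95% interval -1.50 to 0.0089), with a limma p of 0.0522 and an adjusted p of 0.381. With mipafox it was -0.25 (SE 0.33), with an adjusted p of 0.953. The 2 differences share the control arrays. With the normexp background correction, which treats dim spots differently, the difference with paraoxon was -0.17, and it was -1.32 (SE 0.59) with slide as a block. Without paraoxon C it was -0.37, against -1.02 without paraoxon A. The direction was the same under all 20 alternatives that gave a fit, and JUNB was not called under any of them.

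**Figure D1:**
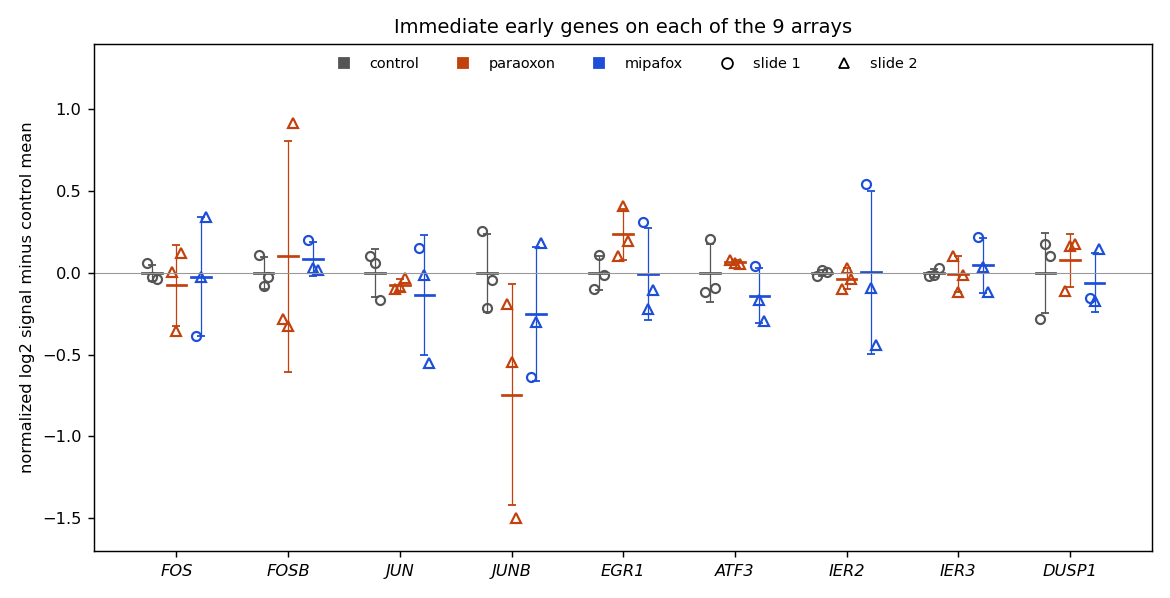
Normalized log2 signal of each array minus the mean of the 3 control arrays (vertical axis) for the 9 tested genes at their brightest probe (horizontal axis). Points are arrays, circles on slide 1 and triangles on slide 2, bars are means and error bars SD (n = 3). The treatments overlap for every gene except that the paraoxon arrays of ATF3 lie just above the mipafox arrays, and JUNB and FOSB have the widest spread with paraoxon.

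EGR1 (A_23_P214080, chr5:137804891-137804950, plus strand) had the largest positive difference from control of the 9 genes at their brightest probe, and it was with paraoxon. It read -0.18, 0.020 and -0.100 on the controls, 0.016, 0.32 and 0.11 on the paraoxon arrays and 0.23, -0.31 and -0.20 on the mipafox arrays. Paraoxon A was just below control B, so the groups overlapped. The log2 fold change with paraoxon was 0.24 (SE 0.17, adjusted p 0.625 in limma) and with mipafox -0.0048 (SE 0.17, adjusted p 0.998). With slide as a block the value for paraoxon was 0.72, which rests on mipafox A as the link to the controls, and it was not called.

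DUSP1, IER2 and the brighter IER3 probe differed from control by less than 1 SE in the fit without the slide. DUSP1 (A_23_P110712, chr5:172195296-172195355, minus strand) is printed in 10 spots on each array, of which 7 to 10 were used, and its spots on 1 array had a median SD of 0.059. Between the 3 control arrays its SD was 0.25, so that the spread between arrays and not that between spots set the precision. Its log2 fold change was 0.076 with paraoxon and -0.060 with mipafox, each with an SE of 0.17. IER2 (A_32_P36235, chr19:13265586-13265645, plus strand) differed by -0.034 and 0.0038 (SE 0.22). With slide as a block these became 0.77 with paraoxon and 0.54 with mipafox, and neither was called. Both values rest on mipafox A, the highest array for IER2 at 5.37. IER3 at its brighter probe (A_23_P42257, chr6:30711312-30711371, minus strand) differed by -0.0083 and 0.048 (SE 0.14), the smallest SE of the tested genes.

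A probe was called when its log2 fold change lay beyond 1 at an adjusted p under 0.05. None of the 13 was called in either comparison with control. Over all 29134 tested probes 0% were called with paraoxon and 0% with mipafox, so the absence of calls does not set the immediate early genes apart. At an unadjusted p under 0.05 in limma, 1 of the 13 probes passed with paraoxon and 1 with mipafox, both of ATF3, where 13.3% and 6.96% of all probes passed. None of the 13 also lay beyond the fold limit, as 2.19% and 0.844% of all probes did. The smallest adjusted p was 0.170 with paraoxon and 0.449 with mipafox. Paraoxon and mipafox, at their different doses, differed at no probe of the 13 at an unadjusted p under 0.05, where 4.02% of all probes did and 0% were called.

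The 95% intervals of the fit without the slide measure the spread between arrays. They do not bound a difference with paraoxon, which shared no slide with control. With slide as a block the paraoxon values became 0.77 (SE 0.24) for IER2, 0.72 (SE 0.24) for EGR1 and -0.62 (SE 0.30) for FOS. For DUSP1 the value was -0.066 (SE 0.31). These values all rest on mipafox A as the link between the slides. The 95% interval lay within 1 log2 unit of 0, which is less than a doubling or halving, at 9 of the 13 probes with paraoxon and 10 of 13 with mipafox, where 77.5% and 82.2% of all probes did. With paraoxon the probes outside this limit were that of JUNB, 2 of ATF3 and the dimmer one of IER3, and at the brightest probe of each gene JUNB was the exception in both comparisons. The interval lay within 0.5 log2 units at 4 of the 13 probes with paraoxon, where 25.6% of all probes did. These were the brightest probes of ATF3, DUSP1, IER3 and JUN. With mipafox it did so at 5 of 13, the brightest probes of ATF3, DUSP1, EGR1, FOS and IER3, where 28.6% of all probes did. The median log2 fold change of the 9 genes was -0.0083 with paraoxon and -0.023 with mipafox, against 0.012 and 0.00099 over all probes. The median size of the difference, whatever its sign, was 0.075 with paraoxon and 0.060 with mipafox, against 0.19 and 0.15 over all probes. The sets are unlike, because the 9 genes are read at their brightest probe and all probes include dimmer ones. The other ATF3 and IER3 probes, left out of these medians, differed by -0.33, -0.48, 0.73 and -0.40 with paraoxon. With mipafox they differed by -0.65, -0.50, 0.40 and -0.22. The spread within treatments had a median SD of 0.23 for the 9 genes and 0.25 for all probes.

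**Figure D2:**
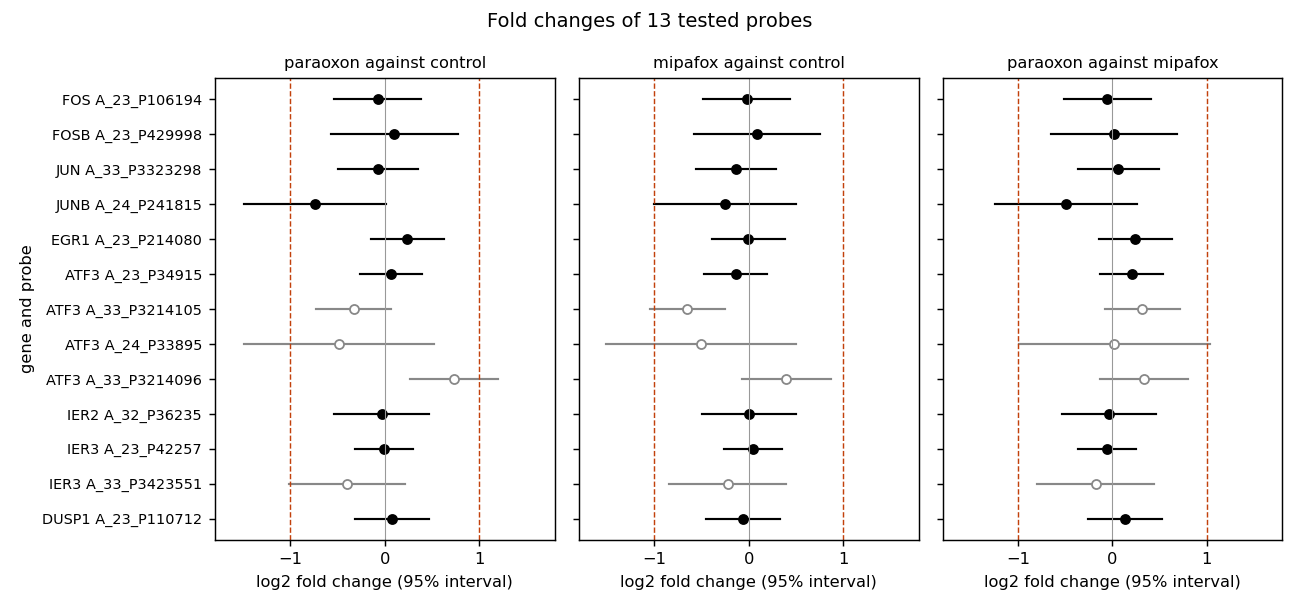
Log2 fold change (horizontal axis) with its 95% interval from limma for the 13 tested probes (vertical axis), in 3 panels for the comparisons. Filled points are the brightest probe of a gene, open points its other probes, and the dashed lines mark a log2 fold change of 1 in each direction. No point lies beyond the dashed lines, and the intervals of ATF3 A_33_P3214096 with paraoxon and ATF3 A_33_P3214105 with mipafox do not hold 0.

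ATF3 was measured by 4 probes, which gave different values. In the direction of transcription, with hg19 positions on the plus strand, they were A_33_P3214105 (chr1:212788502-212788561), A_33_P3214096 (chr1:212792519-212792578), A_24_P33895 (chr1:212792837-212792896) and A_23_P34915 (chr1:212793856-212793915). ATF3 is transcribed into several splice forms, and probes at different places can read different forms. Which exon or untranslated region each position lies in was not checked against an hg19 annotation here. The sequences of 2 of them are shown because the first gave the difference with mipafox and the second had the widest spread of the 4.
ATF3 A_33_P3214105: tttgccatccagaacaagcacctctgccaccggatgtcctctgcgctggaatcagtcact
ATF3 A_24_P33895: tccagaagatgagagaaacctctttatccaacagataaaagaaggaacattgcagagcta

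At A_33_P3214105 the signal was -2.02, -1.76 and -1.86 on the controls, -2.09, -2.16 and -2.39 on the paraoxon arrays and -2.22, -2.57 and -2.81 on the mipafox arrays. All 6 exposed arrays lay below the 3 controls. The log2 fold change was -0.65 with mipafox (SE 0.18, limma p 0.00496, adjusted p 0.449) and -0.33 with paraoxon (SE 0.18, p 0.0936, adjusted p 0.472). Within slide 1 mipafox A lay 0.34 below the control mean, as a single array with no spread of its own. With array weights the adjusted p with mipafox was 0.00633, with a difference below the fold limit, and with slide as a block it was 0.850. The weights lean on few arrays: control B had 4.37 and control A 0.39, mipafox B 3.05 and mipafox C 0.28, paraoxon A 3.33 and paraoxon C 0.39. Over all probes that setting called 800 with mipafox and 671 with paraoxon, against 0 in the same fit without weights. A small adjusted p under it therefore does not set a probe apart.

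At A_33_P3214096 the exposed means lay above the control mean. The signal was -2.93, -3.27 and -3.48 on the controls, -2.53, -2.72 and -2.25 on the paraoxon arrays and -3.07, -2.52 and -2.90 on the mipafox arrays. The paraoxon arrays all lay above the controls, and the mipafox arrays overlapped with both. The log2 fold change was 0.73 with paraoxon (SE 0.21, limma p 0.00638, adjusted p 0.170) and 0.40 with mipafox (SE 0.21, adjusted p 0.794). With slide as a block the value for paraoxon was 0.37 (SE 0.36), and with array weights its adjusted p was 0.00665, again with a difference below the fold limit.

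At A_24_P33895 paraoxon C read -3.92, with its 2 spots at -3.93 and -3.90, while paraoxon A and B read -2.34 and -1.90, and the controls read -2.57, -2.16 and -1.97. Without paraoxon C the difference of paraoxon from control was 0.11, against -0.48 with it. With mipafox the probe differed by -0.50 (SE 0.45, adjusted p 0.909 in limma), in the direction of A_33_P3214105, and with array weights by -0.84 at an adjusted p of 0.0487, below the fold limit. At A_23_P34915, the brightest of the 4, the signal was 2.09, 2.41 and 2.11 on the controls, 2.28, 2.26 and 2.25 with paraoxon and 2.24, 2.04 and 1.91 with mipafox. The 3 paraoxon arrays of this probe lay close together. They were all above the mipafox arrays, by a mean of 0.20 (SE 0.15, adjusted p 0.998 in limma), and 8.94% of all probes had no overlap between these treatments. Of the 13 probes of the immediate early genes 2 had no overlap between paraoxon and control and 1 between mipafox and control, where 23.4% and 11.8% of all probes had none. All 3 were the ATF3 values given here.

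IER3 had 2 probes, which also differed. The second, A_33_P3423551 (chr6:30711576-30711635), read -0.40, -0.53 and -0.64 on the controls, -0.60, -0.99 and -1.19 with paraoxon and -0.23, -0.65 and -1.36 with mipafox. Its log2 fold change with paraoxon was -0.40 (SE 0.27, adjusted p 0.594 in limma), and it was 0.37 with slide as a block. At the brighter probe the values of the 9 arrays all lay between 0.78 and 1.12.

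**Figure D3:**
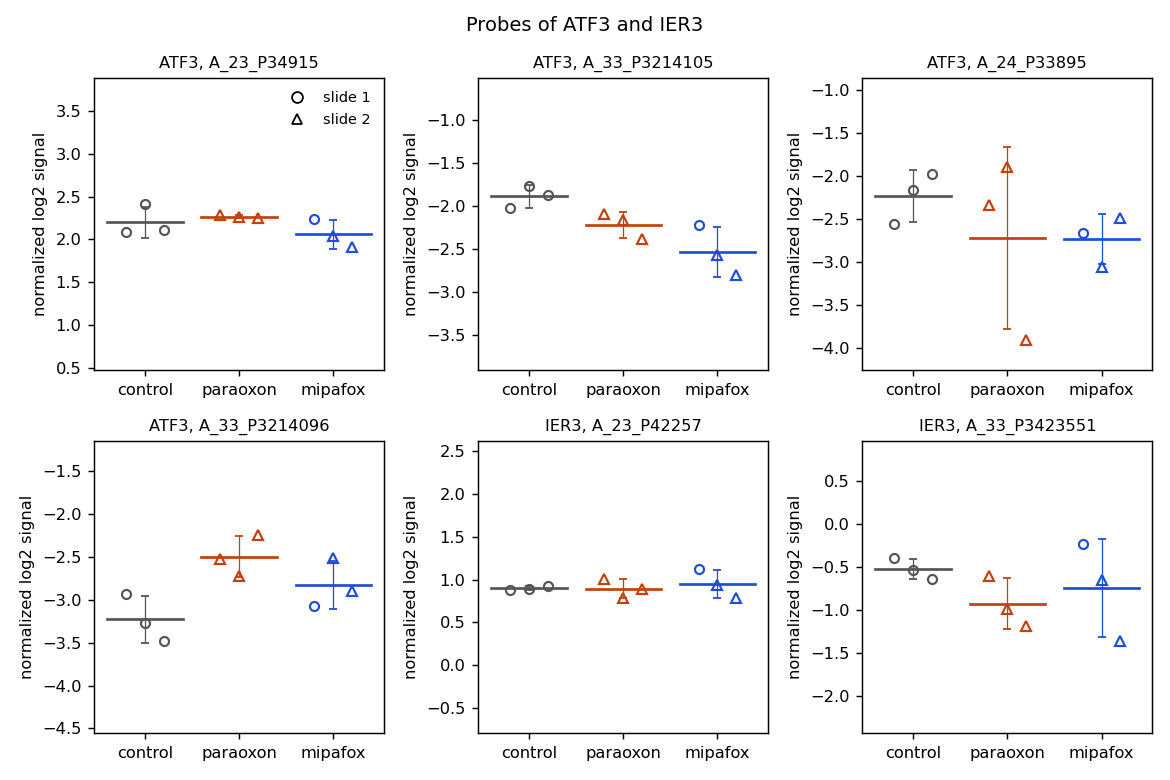
Normalized log2 signal (vertical axes, each spanning the same number of log2 units) at the 4 probes of ATF3 and the 2 of IER3 on the control, paraoxon and mipafox arrays. Circles are arrays on slide 1 and triangles arrays on slide 2, bars are means and error bars SD (n = 3). ATF3 A_33_P3214105 is lower and A_33_P3214096 higher on all 3 paraoxon arrays than on the controls.

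The mipafox arrays were spread more widely than the controls at several genes, and the spread followed the array. IER2 read 4.80, 4.84 and 4.83 on the controls, 4.73, 4.86 and 4.79 on the paraoxon arrays and 5.37, 4.73 and 4.38 on the mipafox arrays. Mipafox A was the highest array and mipafox C the lowest, 0.98 apart, while the other 7 arrays lay between 4.73 and 4.86. JUN and the second IER3 probe were also highest on mipafox A and lowest on mipafox C. FOS had the opposite order, lowest on mipafox A and highest on mipafox C. Of the 9 embryonal carcinoma markers, read at 1 probe each, 4 had the order of IER2, highest on mipafox A and lowest on mipafox C. These were LIN28B, NANOG, POU5F1 and SOX2, while DPPA4 had the order of FOS. A second POU5F1 probe (A_24_P144601) had its lowest value, 1.87, on paraoxon C instead. The share of all probes with either order was not counted, and the part of the markers in the result was not tested. On the slides, mipafox B and C together differed from mipafox A by 0.55 for FOS, -0.81 for IER2, -0.48 for EGR1, -0.43 for JUN and 0.14 for DUSP1. At the brightest probes of the other genes it was -0.18 for FOSB, -0.27 for ATF3, -0.26 for IER3 and 0.58 for JUNB. For every gene but JUNB this difference within 1 treatment was larger in size than both differences from control in the fit of all 9 arrays. For JUNB it was smaller than the -0.74 with paraoxon. The difference sets 2 arrays against 1 and was not tested.

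Over the 9 arrays FOS and IER2 were negatively correlated, with a Pearson r of -0.84 (exact permutation p 0.00551) and a Spearman rho of -0.78 (exact permutation p 0.0172). This pair is named because it had the smallest p of the 36 pairs of the 9 genes. Among these pairs its adjusted values were 0.198 and 0.442, so the correlation did not pass the adjustment. Without mipafox A and mipafox C, the arrays farthest from the median of FOS, r was -0.49 over the other 7, so the relation rests largely on those arrays. On the 5 arrays of slide 2 r was -0.83, and slide 1 held 4 arrays, too few for a value. Of the 36 pairs 20 had an r above 0 and the median r was 0.098, so the 9 genes did not rise and fall as 1 group from array to array. JUN, EGR1, ATF3, IER2 and IER3 were all positively correlated with each other, with r from 0.14 to 0.78. FOS and JUNB were negatively correlated with each of them. This pattern was seen after the values were known, and no pair passed the adjustment. The mean of the 9 genes, each set to 0 at its own mean, stayed between -0.067 on mipafox B and 0.068 on mipafox A.

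**Figure D4:**
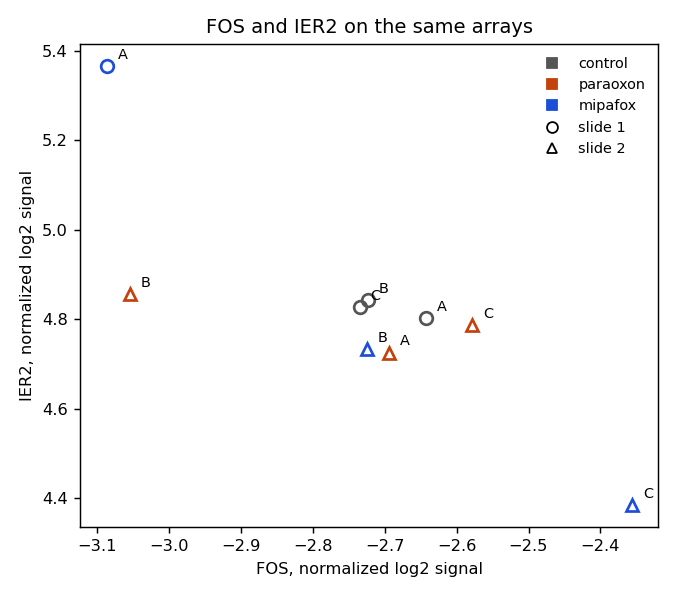
Normalized log2 signal of FOS (horizontal axis) and IER2 (vertical axis) on the 9 arrays, with the replicate letter beside each point, colours for treatments, circles for slide 1 and triangles for slide 2. Mipafox A and mipafox C lie at the ends, and the controls lie close together.

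The search covered 20347 tested probes of other named genes, and each gene was ranked by its probe with the highest r. The genes whose signal over the 9 arrays was most like that of FOS were RASA2 (r = 0.949), CSDA (0.940), RPS6KC1 (0.928), EYA1 (0.913) and LSM12 (0.903). Those most like the mean of the 9 immediate early genes were CCDC11 (0.961), VPS18 (0.946), FANCF (0.941), SPEN (0.937) and RAE1 (0.934). The 2 lists had no gene in common. These are the highest of a great many correlations over the same 9 arrays and are given as a description.

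Other genes of the same pathway gave no call either. Of 48 other immediate early genes, such as MYC, the NR4A receptors and the KLF factors, 44 were tested and none was called. At an unadjusted p under 0.05 in limma, 3 of their 52 probes were higher and 4 lower with paraoxon, where 7.31% and 6.02% of all probes were. With mipafox 1 was higher and 2 were lower, where 2.96% of all probes were higher and 4% lower. Their median log2 fold change was -0.020 with paraoxon and 0.0044 with mipafox. Of 12 tested MAP kinase phosphatases and feedback inhibitors, such as DUSP6 and SPRY2, which act like DUSP1 to damp the pathway, none was called, and of their 15 probes 1 was lower with paraoxon and 1 higher with mipafox at an unadjusted p. Of 32 kinases and factors upstream of the genes none was called. Of their 45 probes, 9 were lower and 0 higher with paraoxon at an unadjusted p, and 4 were lower and 0 higher with mipafox. Of all probes 6.02% were lower with paraoxon and 4% with mipafox. The 9 probes are of 7 genes and the 4 of 2 genes, ELK4 and MAPK8. At the brightest probe 4 of the 32 genes were lower with paraoxon and 1 with mipafox, and the list was not tested as a set. Of 11 tested ATF and bZIP partners and 11 heat shock genes none was called. Of the 12 probes of the partners 1 was lower with paraoxon and 0 passed with mipafox. The 1 was of ATF2, which is also among the upstream factors. Of the 16 heat shock probes 1 was higher and 2 were lower in each comparison, and the lower ones were both of HSP90AA1.

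Past the fold limit before adjustment were NR4A1, FOSL2 and 1 probe each of KLF6 and MAPK8. They were picked by their p and fold in these data, so their separation from control is no separate support. NR4A1, an orphan nuclear receptor induced with FOS in many cells, read -5.75, -5.71 and -5.64 on the controls, -4.47, -4.27 and -4.89 with paraoxon and -5.41, -3.97 and -4.37 with mipafox. All 6 exposed arrays lay above the controls, and mipafox A, the exposed array on the slide of the controls, lay nearest to them. Its log2 fold change was 1.16 with paraoxon (SE 0.33, adjusted p 0.166 in limma) and 1.12 with mipafox (adjusted p 0.482). Within slide 1 mipafox A lay 0.30 above the control mean, and mipafox B and C on slide 2 lay 1.23 above mipafox A. The slide and the exposure cannot be told apart for the paraoxon value.

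FOSL2, a FOS relative that also enters AP-1, read -5.64, -6.41 and -6.53 on the controls, -7.34, -7.77 and -7.69 with paraoxon and -7.04, -6.77 and -8.56 with mipafox. It was well above background on all 3 controls, on none of the 3 paraoxon arrays and on 1 of the 3 mipafox arrays, and it was tested because of its level on the controls. FOSL2 differed by -1.41 with paraoxon (SE 0.43, adjusted p 0.201 in limma). With paraoxon values below the dimmest signal well above background of their array raised to that signal, control was 2.30-fold above paraoxon. That floor comes from any probe of the array and is not the detection limit of this probe, so it sets no bound. With mipafox, where 1 of 3 arrays measured FOSL2, the adjusted p was 0.578. One KLF6 probe (A_33_P3367615) differed by -1.38 with paraoxon and -1.20 with mipafox, with adjusted p-values of 0.291 and 0.705, and was not the brightest of its gene. It was not well above background on paraoxon C. One probe (A_33_P3250289) of the kinase gene MAPK8, which encodes JNK1, was also not the brightest of its gene. It differed by -1.14 with paraoxon (SE 0.22, adjusted p 0.0785 in limma) and by -0.82 with mipafox (adjusted p 0.449). Within slide 1 mipafox A, a single array, differed from the control mean by -0.82, and mipafox B and C differed from mipafox A by -0.012. A second MAPK8 probe (A_23_P356152), also not the brightest, differed by -0.41 with paraoxon and -0.47 with mipafox (adjusted p 0.346 and 0.622 in limma). The brightest MAPK8 probe did not pass an unadjusted p under 0.05. The paraoxon and mipafox values share the control arrays and are not independent of each other.

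**Figure D5:**
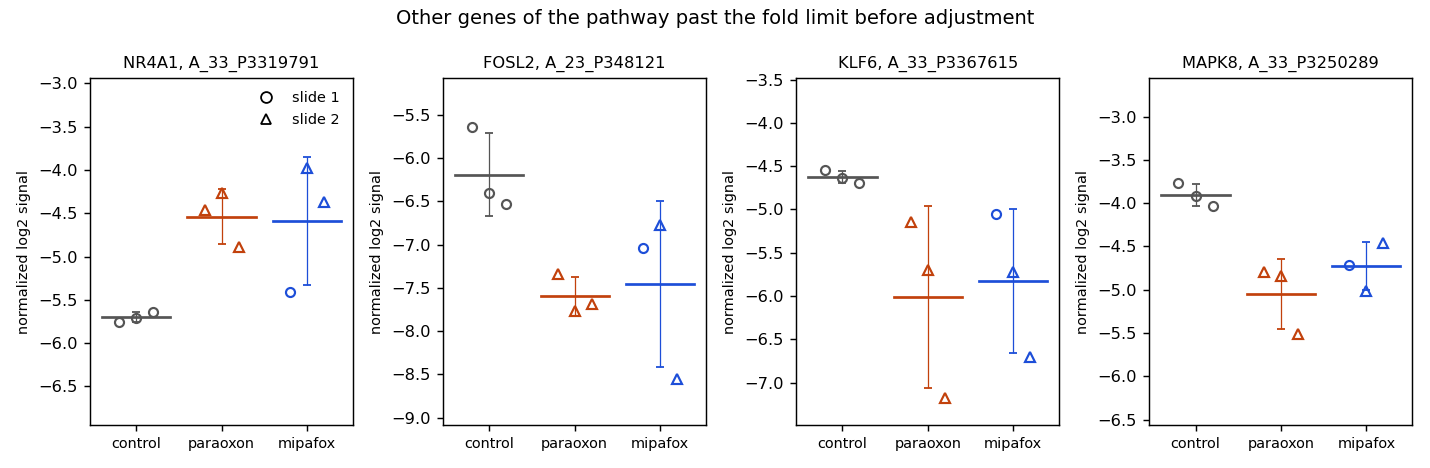
Normalized log2 signal (vertical axes, each spanning the same number of log2 units) of NR4A1, FOSL2 and 1 probe each of KLF6 and MAPK8 on the control, paraoxon and mipafox arrays. Circles are slide 1, triangles slide 2, bars means and error bars SD (n = 3). The 4 probes were picked by their p and fold in these data, and the exposed arrays do not overlap with the controls at any of them. Of all probes 23.4% had no overlap with paraoxon and 11.8% with mipafox. At NR4A1 the mipafox array of slide 1 lies nearest to the controls. For FOSL2 only 1 of the 6 exposed arrays was well above background.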

How the data were processed

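The authors extracted spot intensities from 9 one-colour arrays with Agilent Feature Extraction 10.5.1.1 and deposited the processed, mean and background signals of each spot on a linear intensity scale. A second deposited table, by the authors, held log2 values made in R with Agi4x44PreProcess per the study's methods; it holds all 14 probes used here and served as an alternative. Here log2 of the processed signal minus the 75th percentile of each array was taken, outlier-flagged spots were dropped and the other spots of each probe averaged. A probe was well above background on an array when at least 0.5 of its spots were. Probes had to be well above background on all arrays of 1 or more treatments and to have 2 or more values in each. These were 29134 of 42405 and entered a limma 3.58.1 (R 4.3.3) fit over all 9 arrays with Benjamini-Hochberg adjustment. The study's methods name limma, this adjustment and the fold limit, while the normalization, the filter and the joint fit were chosen here. The counts of calls are therefore not those of the study. A call was a log2 fold change beyond 1 at an adjusted p under 0.05. Precision is limited by how few arrays there were. A gene is represented by its brightest probe. The fit was tested on simulated data, and matplotlib 3.10.9 drew the figures.

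The genes and lists were chosen with earlier results of these data known. Named are every probe of the 10 genes, list genes called or past the fold limit at an unadjusted p under 0.05 (at most 5 a list), and the 5 genes most alike. The alternatives listed were quantile normalization, normexp correction, the authors' values, no filter or a stricter one, slide or replicate letter as a block, 2 treatments alone, another variance model, array weights, flagged spots kept, other probes, thresholds, within-slide differences and each array left out. A blood and macrophage list was also counted. In it PTPRC, dim at a control mean of -5.96, was 1.15 higher with paraoxon (adjusted p 0.0764 in limma). The list did not move with it: its median log2 fold change with paraoxon was -0.0097. CD68 went from -4.69 on the controls to -5.00, AIF1 from -2.71 to -2.84 and CD14 from -3.77 to -3.65. No probe of the retinoic acid response, neural, astrocyte or mesenchymal lists was called. Probe sequences and hg19 coordinates are those of the array files.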

Additional observations from a re-analysis of the deposited data

How the results depend on the processing

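No probe of the immediate early genes was called under any of the alternatives run. Counts over all probes, 0 in every comparison, did depend on the setting. With paraoxon against control 1 probe was called with slide as a block, 276 with the 2 treatments alone, 671 with array weights and 638 by unadjusted p, and 0 to 276 with one array left out, of which 276, 77 and 1 were without mipafox A, B and C. With mipafox against control 6 were called with slide as a block, 800 with array weights and 246 by unadjusted p, and 0 to 76 with one array left out, 76 of them without mipafox A. Between paraoxon and mipafox 74 passed by unadjusted p. The median log2 fold change of the 9 genes moved with paraoxon to 0.28 with slide as a block, -0.084 with array weights, -0.073 with the next brightest probes and -0.033 to 0.045 with one array left out. With mipafox it was 0.15 with slide as a block, which here is the same difference as mipafox A against control within slide 1. It was -0.060 to 0.046 with one array left out. Between the compounds it was 0.088 with slide as a block, which here is the same difference as that within slide 2. It was -0.037 to 0.088 with one array left out. The cause was not tested. With the replicate block the counts stayed 0 and the medians were -0.0083, -0.023 and 0.017. Arrays of the same letter correlated between -0.598 and 0.567 after the treatment means were removed, so the letters were not taken as pairs. A sign was compared only where a value exceeded its SE in both fits, and none then turned. Signals near background, as at EGR2 and at JUNB on paraoxon C, limit what 3 arrays a treatment can show.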
